A study of Arabidopsis thaliana with 6 samples.

Results

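The comparison of norflurazon with no herbicide in wild type Arabidopsis thaliana seedlings rests on 4 of the 6 ATH1 arrays of the series, chosen by sample title. All seedlings were grown in sealed dishes on salt medium with 1.5% (w/v) sucrose at 23 °C, first in the dark for 3 days and after that under constant white light for another 3 days. Total RNA was taken from whole seedlings with cotyledons, hypocotyl and primary root but no true leaves, so that several organs are mixed in each sample. In 2 samples the wild type, accession Col-0, grew with 5 µM norflurazon in the medium, and in 2 control samples it grew without it. The remaining 2 arrays held gun1,gun5 double mutant seedlings on 5 µM norflurazon. They entered the shared estimate of spread, the filter on dim probe sets and the choice of 1 probe set per locus. They entered none of the log2 changes, and their values are given only where the mutant is named. The labels do not say whether samples of 1 group came from separate dishes or plantings, so the spread behind the p-values may be partly technical. In RNA from whole seedlings, fewer cells of a type and less RNA per cell cannot be told apart.

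Norflurazon blocks phytoene desaturase, an early enzyme of carotenoid synthesis. Without carotenoids, chlorophyll in light passes its energy to oxygen, and the developing chloroplast is bleached and its membranes are damaged. Nuclear genes for photosynthesis proteins are known to be repressed in such seedlings, a form of plastid-to-nucleus signalling, while the seedling can go on living when sugar is supplied.

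The deposited values are MAS5 signals on a linear scale. A change here is the difference of group means of log2(signal + 16), with 2 arrays per group. Its standard error (SE) comes from the limma fit, whose spread is shared over all 6 arrays, the mutant arrays among them. It is therefore not the spread of the 4 wild type arrays alone. Adding 16 compresses the change of dim genes. Adjusted p-values are two-sided, from a limma fit with Benjamini-Hochberg adjustment over all tested probe sets, and genes are said to have risen or fallen where the adjusted p was under 0.05. Median signals lay between 42.6 and 46.8 on the 6 arrays. The 2 norflurazon arrays differed more from each other than the 2 control arrays: the standard deviation of their log2 difference was 0.5 against 0.215, and 389 against 11 tested probe sets differed over 2-fold within the pair. The 25S ribosomal RNA control probe set read 2511.1 on norflurazon replicate 1 and 8.2 to 15.2 on the other 3 wild type arrays, and the actin 3′ to 5′ ratio, a sign of RNA quality, was 1.65 on norflurazon replicate 1, 3.63 on norflurazon replicate 2, and 2.46 and 2.78 on the controls. The part of these differences in the results below was not tested. The small number of arrays limits the precision.

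On norflurazon 1230 of 13648 tested probe sets rose (9.01%) and 1400 fell (10.3%), 19.3% in all, with a median log2 change of 0.06 over all tested probe sets. Of the rises 333 were at least 2-fold and 31 at least 4-fold, while 726 of the falls were at least 2-fold and 173 at least 4-fold. Changes of 2-fold or more were thus more often falls. The 4 arrays did not overlap between the groups in 62.2% of the probe sets. Among 7189 nuclear loci with 1 probe set each, 664 rose (9.24%) and 669 fell (9.31%), and the groups did not overlap in 61.7%. The counts depended on both controls. In a fit without 1 of them, the shared spread comes from the norflurazon pairs of wild type and mutant alone. Within those pairs the standard deviation of the log2 difference was 0.5 and 0.383, against 0.215 between the controls. A call lost in such a fit can therefore reflect the wider spread, a changed log2 change or both. Which of these applied was not tested. A gene name was held for 992 of the tested nuclear loci, of which 83 rose and 114 fell; the other 6197 are known here by locus number, and 581 of these rose and 555 fell. The lists below were assembled by role from the named loci after values had been seen, so their counts are descriptions. They are to be read beside the 18.5% of nuclear loci called in either direction.

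**Figure D1:**
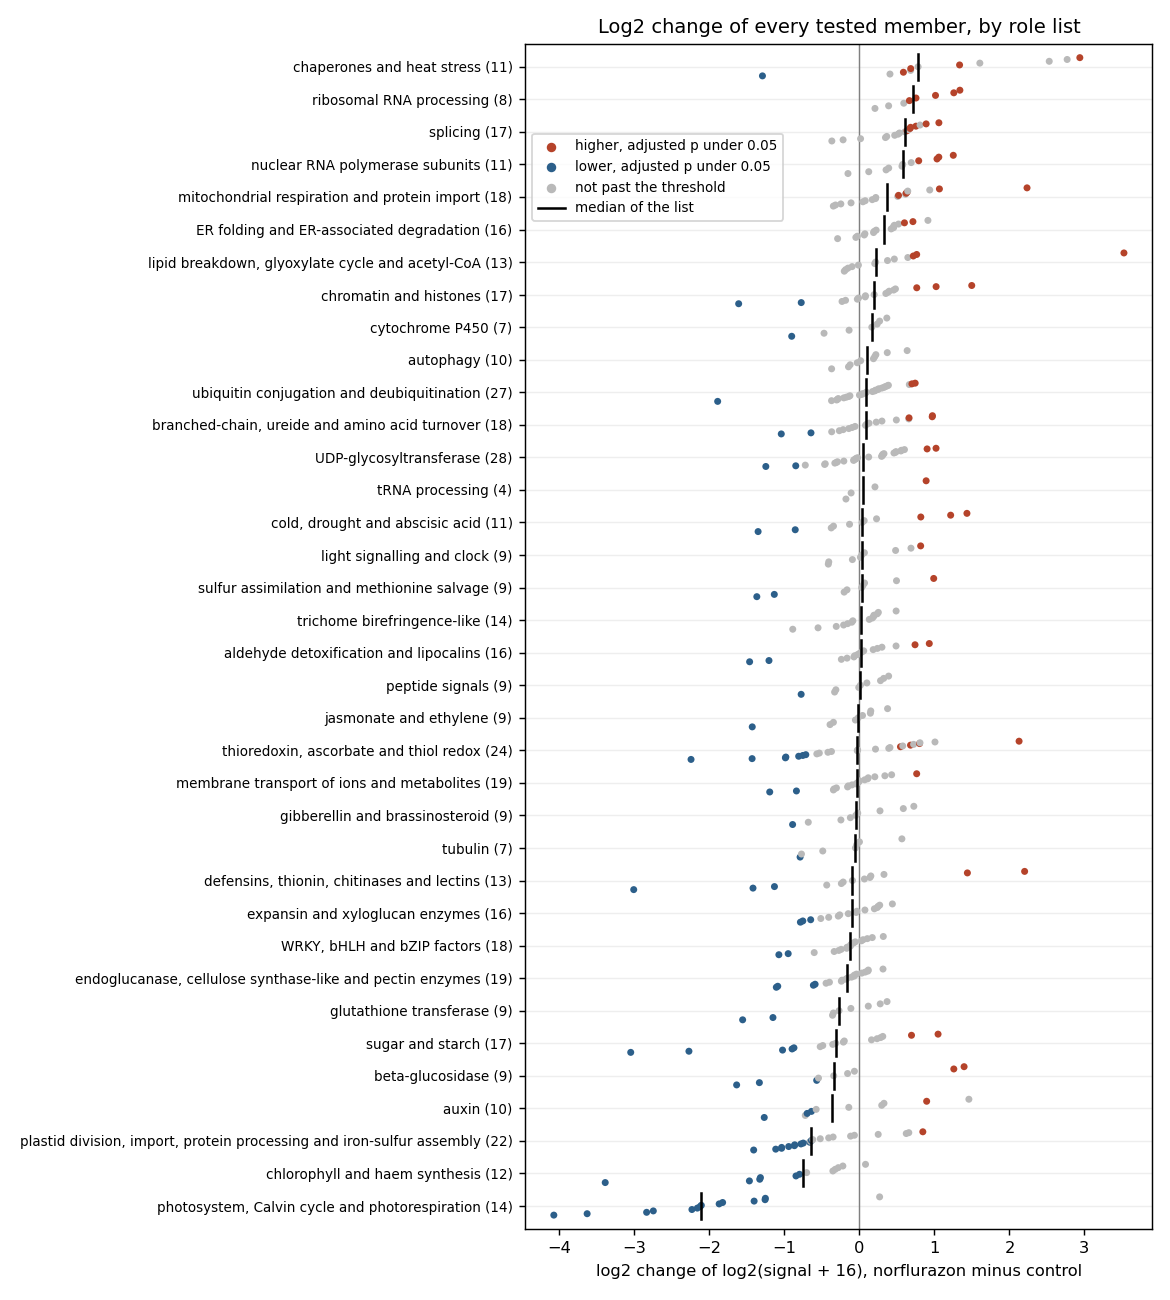
Log2 change of log2(signal + 16), norflurazon minus control, for every tested member of 36 role lists, ordered by the median of the list (black bar); the number of tested members stands in brackets. Red points rose and blue points fell at an adjusted p under 0.05, and grey points did not pass. The medians run from -2.12 for photosystem and Calvin cycle genes to 0.78 for chaperones, and most lists hold both red and blue points or few coloured points.

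The largest rise of a gene known by name was that of ICL (AT3G21720), isocitrate lyase of the glyoxylate cycle, which lets a seedling turn fatty acid carbon into sugar. Its signals were 2030.3 and 1670.5 on norflurazon against 137.2 and 153.8 in the control, a log2 change of 3.53 ± 0.48 (adjusted p = 0.00242). Both treated arrays stood far above both controls. ARPN (AT2G02850), a plantacyanin, which is a small copper protein of the cell surface, had signals of 251.2 and 354.8 against 41.0 and 60.7 and rose by 2.25 ± 0.22 (adjusted p = 0.000554). The loci AT2G04050, AT2G41730, AT2G19970 and AT2G21640, known here by number, rose by 3.44, 3.34, 3.06 and 3.04. Of these AT2G41730 was near the floor in the control, at 2.1 and 6.4, against 143.4 and 245.9 on norflurazon, so its size depends on the constant added: with 1 in place of 16 the change was 5.30. AT4G15680 rose from 20.5 and 37.7 to 245.8 and 162.5, a log2 change of 2.29 that did not pass without control replicate 1.

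A further 3 of the 10 largest rises were uneven between the treated arrays. AT5G51440 read 1660.9 on norflurazon replicate 1 and 256.4 on replicate 2, against 34.6 and 50.7 in the control, a log2 change of 3.54 ± 0.75 (adjusted p = 0.016). Without norflurazon replicate 1 its change was 2.23, and without either control it did not pass (adjusted p = 0.113 and 0.0796). AT1G19530, at 1294.6 and 708.5 against 156.8 and 180.3, rose by 2.40 ± 0.53 (adjusted p = 0.0176). It missed the threshold without norflurazon replicate 1 (adjusted p = 0.0588) and without either control (adjusted p = 0.118 and 0.0912). Fes1A, the remaining one, is described with the chaperones.

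**Figure D2:**
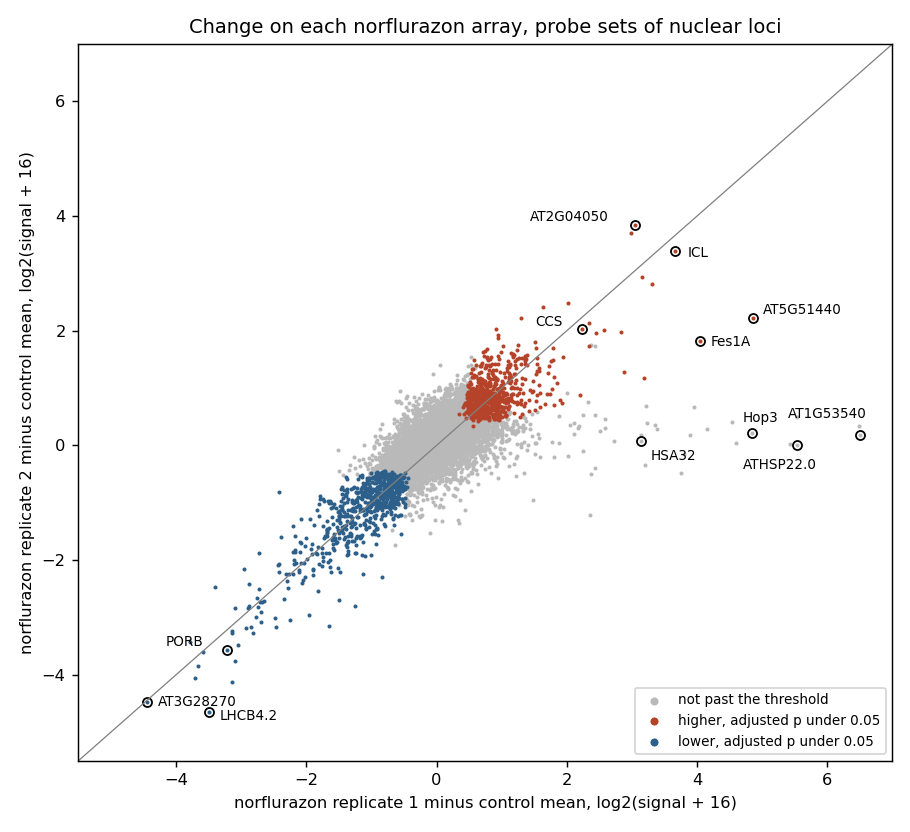
Difference of each norflurazon array from the mean of the 2 controls in log2(signal + 16), replicate 1 on the x axis and replicate 2 on the y axis, for the tested probe sets of nuclear loci; red rose, blue fell, grey did not pass, and the line marks equal change. ICL, CCS and PORB lie near the line. LHCB4.2 fell on both arrays but lies below the line, at -3.49 on replicate 1 and -4.66 on replicate 2. HSA32, Hop3, ATHSP22.0 and AT1G53540 were raised on replicate 1 and lie near 0 on replicate 2.

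Genes of photosynthesis had the lowest median of the 36 role lists. Of 14 named genes for photosystems, the ATP synthase, the Calvin cycle and photorespiration, 13 fell and 0 rose, with a median log2 change of -2.12, and all 13 calls held without each of the 4 wild type arrays in turn. LHCB4.2, an antenna protein of photosystem II, read 200.5 and 80.4 on norflurazon against 2596.2 and 2249.6 in the control, a log2 change of -4.07 ± 0.36 (adjusted p = 0.000335). RCA, the activase of Rubisco, kept much more of its signal, at 1690.5 and 1323.2 against 3798.8 and 3410.1 (log2 change -1.26 ± 0.15, adjusted p = 0.0012). The groups did not overlap for either gene, which the rule for the largest falls required of LHCB4.2. The same held for 61.7% of all nuclear loci. Among the loci known by number, AT3G28270 fell from 477.5 and 273.8 to 1.3 and 1.0, a log2 change of -4.46, or -7.40 with 1 added in place of 16. AT1G70820 was likewise dim on norflurazon, at 1.1 and 1.0 against 155.7 and 231.2 in the control. The loci AT1G21500, AT5G38980, AT2G25510, AT3G62550 and AT5G48490 also fell, at log2 changes of -3.88, -3.75, -3.61, -3.43 and -3.26, as did PSAE-1, a subunit of photosystem I, at -3.63, and the antenna gene LHCB4.3, at -2.12.

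Chlorophyll synthesis fell in part. Of 12 named genes listed under chlorophyll and haem synthesis 6 fell and 0 rose, with a median of -0.75. The share that fell over all nuclear loci was 9.31%. PORB, which reduces protochlorophyllide in light, had signals of 70.3 and 51.8 against 810.3 and 761.6 (log2 change -3.39 ± 0.18, adjusted p = 3.71e-05). CHLM, the methyltransferase that acts on magnesium protoporphyrin, had 395.6 and 338.0 against 1072.0 and 1008.1 and fell by 1.47. LIL3:1, a light-harvesting-like protein, and HEME1, a uroporphyrinogen decarboxylase of the stem shared with haem, fell by 0.85 and 0.80. CHLI2 also fell, by 1.33, and NOL, counted in this list though a chlorophyll b reductase of chlorophyll breakdown, fell by 1.32. Of the 6 calls, 3 held without control replicate 1 and 4 without control replicate 2, and that of HEME1 did not hold without norflurazon replicate 2. In the carotenoid pathway itself 2 of the 33 listed isoprenoid and carotenoid genes were tested, and LYC, lycopene cyclase downstream of the blocked step, fell by 0.65 ± 0.15 (adjusted p = 0.0248, past the threshold only with both controls in the fit).

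Of 22 named genes for plastid division, protein import and processing and iron-sulfur assembly, 11 fell and 1 rose, with a median of -0.65. Among all nuclear loci 9.31% fell. HCF101, a scaffold for the iron-sulfur clusters of photosystem I, read 107.7 and 109.0 against 322.6 and 306.5 (log2 change -1.41 ± 0.16, adjusted p = 0.000939). FUG1, the plastid translation initiation factor, read 347.9 and 351.3 against 846.9 and 711.8 and fell by 1.12. Both FTSZ2 genes, whose products form the plastid division ring, fell: FTSZ2-2 by 1.04 and FTSZ2-1 by 0.66. The chaperonin genes went both ways: Cpn60beta4 fell from 118.4 and 134.1 to 47.4 and 59.5 (log2 change -1.04), while Cpn60beta3 rose from 87.1 and 70.2 to 154.9 and 151.9 (log2 change 0.84 ± 0.22, adjusted p = 0.034). Without control replicate 1 or 2 only 3 of these 12 calls passed, and those of Cpn60beta3 and SUFE2, a sulfur-transfer partner, passed in none of the 4 fits that left an array out. FTSZ2-1 did not pass without norflurazon replicate 2.

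The redox genes moved both ways. Of 24 named genes of thioredoxin, ascorbate and thiol redox 4 rose and 7 fell, with a median of -0.03. Among all nuclear loci 18.5% were called in either direction. CCS (AT1G12520), the copper chaperone that loads superoxide dismutase, had signals of 380.3 and 328.5 against 63.5 and 73.9, a log2 change of 2.13 ± 0.17 (adjusted p = 0.000217). TAPX (AT1G77490), the ascorbate peroxidase bound to thylakoids, had 38.8 and 53.7 against 303.2 and 252.8 and fell by 2.25 ± 0.18 (adjusted p = 0.000251). SAPX (AT4G08390), its soluble stromal counterpart, had 328.8 and 267.8 against 155.1 and 172.5 and rose by 0.80 ± 0.19 (adjusted p = 0.0245). The membrane-bound and the soluble peroxidase thus stood on opposite sides of the control. For each of the 3 genes the groups did not overlap, as for 61.7% of all nuclear loci.

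Several thioredoxins of the chloroplast and their partners were lower. TRXF2, a thioredoxin that activates Calvin cycle enzymes, read 140.0 and 120.0 against 460.1 and 308.1 (log2 change -1.43 ± 0.22, adjusted p = 0.00413). ATHM2, an m-type thioredoxin, fell by 0.99, THX, an x-type one, by 0.81, and NTRC, which joins a thioredoxin to its reductase, by 0.76. SRX, sulfiredoxin, which repairs overoxidised peroxiredoxin, fell by 0.71, and CcdA, which carries reducing power across the thylakoid membrane, by 0.98. The glutaredoxin GRXC1, outside the plastid, rose from 155.2 and 127.5 to 224.7 and 246.4, a log2 change of 0.68. TY1, a y-type thioredoxin of the plastid, also rose, by 0.55. GR1, a glutathione reductase, had 664.6 and 987.4 against 529.2 and 444.1 and did not pass (log2 change 0.72 ± 0.22, adjusted p = 0.0541). Of the 11 calls of the list 2 held without control replicate 1 and 3 without control replicate 2, CCS and TAPX in both. SAPX and TY1 also missed the threshold without norflurazon replicate 1, and SRX without norflurazon replicate 2.

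Of 16 named aldehyde-detoxifying and lipocalin genes 2 rose and 2 fell, with a median of 0.02, where 9.24% of all nuclear loci rose and 9.31% fell. TIL, the temperature-induced lipocalin of the plasma membrane, had signals of 2454.0 and 1926.5 against 1173.6 and 1094.2 (log2 change 0.93 ± 0.19, adjusted p = 0.0132). CHL, the chloroplast lipocalin, had 144.5 and 162.6 against 324.4 and 432.4 and fell by 1.21 ± 0.19 (adjusted p = 0.00447). The plastid lipocalin was thus lower and that of the plasma membrane higher. Their groups did not overlap, as for 61.7% of all nuclear loci. AOR, a chloroplast reductase of reactive carbonyls, had 503.0 and 261.3 against 1249.1 and 849.2 and fell by 1.46, and ALDH2C4, a cytosolic aldehyde dehydrogenase of phenylpropanoid synthesis, rose by 0.74. Without control replicate 1 only the call of CHL held, and without control replicate 2 none of the 4 did; ALDH2C4 also missed it without norflurazon replicate 1.

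Of 9 named glutathione transferases, enzymes that couple glutathione to toxic compounds, 0 rose and 2 fell, with a median of -0.27. Over all nuclear loci 9.24% rose and 9.31% fell. GSTU18 read 51.0 and 52.3 against 170.5 and 196.3, a log2 change of -1.56 ± 0.21 (adjusted p = 0.00255), and GSTL3 fell by 1.15. GSTL3 did not pass without control replicate 2. Of 3 class III peroxidases with a descriptive entry, secreted enzymes that act on the wall with hydrogen peroxide, 2 rose. AT5G64120, listed as PRX71, read 825.6 and 932.2 against 265.3 and 284.4 (log2 change 1.62 ± 0.20, adjusted p = 0.00152), and Prx37 read 108.4 and 93.1 against 32.3 and 45.1 (log2 change 1.1). The call of Prx37 did not hold without control replicate 1.

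**Figure D3:**
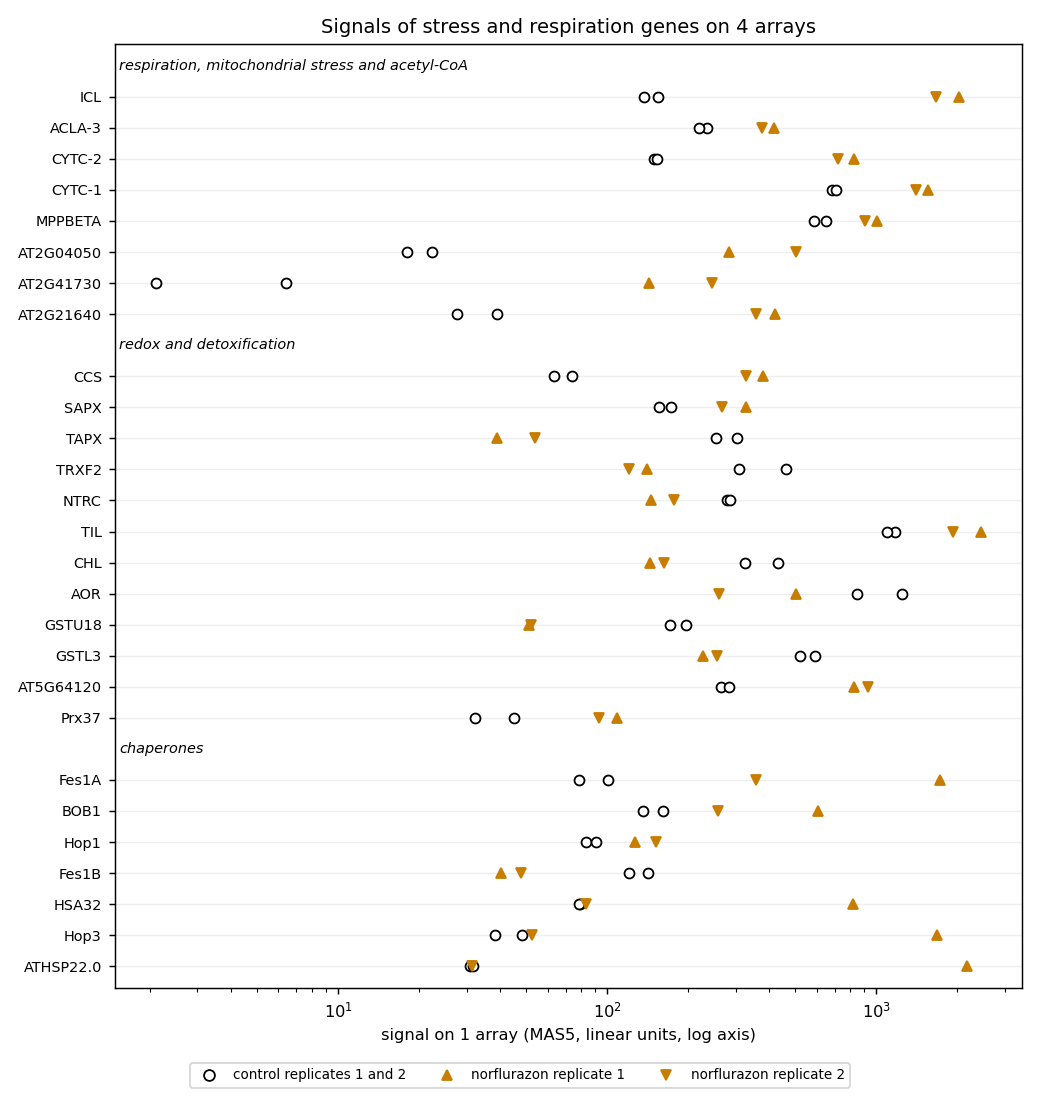
Signals of respiration, redox and chaperone genes on the 4 wild type arrays, on a log axis; open circles are the 2 controls, and triangles pointing up and down are norflurazon replicates 1 and 2. CCS and SAPX lie to the right of their controls and TAPX to the left, and the triangles of HSA32, Hop3 and ATHSP22.0 are far apart.

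The chaperone list had the highest median of the role lists, 0.78, but its largest values came from 1 array. Of its 11 genes 4 rose and 1 fell, beside 18.5% of all nuclear loci called. Fes1A (AT3G09350), a cytosolic partner of Hsp70 chaperones, read 1720.1 on norflurazon replicate 1 and 356.6 on replicate 2, against 78.4 and 100.6 in the control. Both treated values were above both controls, and the log2 change was 2.94 ± 0.69 (adjusted p = 0.0233); it was 1.83 without norflurazon replicate 1. BOB1, a chaperone of the NudC kind, read 605.2 and 259.1 against 160.8 and 135.8 and rose by 1.33, or by 0.75 without norflurazon replicate 1. Hop1, which links Hsp70 to Hsp90, rose evenly, with 126.8 and 151.8 against 83.3 and 91.1 (log2 change 0.59 ± 0.17, adjusted p = 0.0464), as did ATJ1, a mitochondrial J-protein, with 41.5 and 43.1 against 20.8 and 19.8 (log2 change 0.68).

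Among the wild type arrays, the highest values of 3 heat-inducible members were on norflurazon replicate 1. ATHSP22.0, a small heat shock protein, read 2168.8 on norflurazon replicate 1 but 31.4 on replicate 2, where the controls read 30.8 and 31.6. Hop3 read 1678.0 and 52.6 against 48.3 and 38.2, and HSA32, which sustains acquired heat tolerance, read 818.5 and 83.2 against 78.9 and 78.3. None of the 3 passed (adjusted p = 0.299, 0.219 and 0.243), and each passed without norflurazon replicate 2. In the heat shock list written by locus 6 of 29 loci were tested, with a median of 2.85, and Fes1A alone passed; AT1G53540 read 2739.2 and 18.6 against 14.7 and 14. The high values sat on the wild type array that also had the high 25S ribosomal RNA signal. On the norflurazon arrays of the gun1,gun5 mutant, where that probe set read 115.6 and 21.0 on replicates 1 and 2, ATHSP22.0 read 2504.6 and 132.1, AT1G53540 3036 and 215.5, and HSA32 392.2 and 117.3. Replicate 1 was the higher there too, and the part of the array or of the replicate number was not tested. Fes1B, a relative of Fes1A, went the other way, at 40.3 and 47.7 against 120.1 and 142.3, and its fall by 1.29 ± 0.18 (adjusted p = 0.00267) held without each array. Of the 5 calls that one alone held without control replicate 1 or 2; Hop1 also missed the threshold without norflurazon replicate 2.

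In the endoplasmic reticulum 2 of 16 named folding and degradation genes rose and 0 fell, beside the 18.5% of nuclear loci called in either direction. BZIP28, a membrane-bound factor released on folding stress, had signals of 291.2 and 261.9 against 156.7 and 167.9 (log2 change 0.71 ± 0.17, adjusted p = 0.0248). DER2.1, a derlin of protein retrieval from the endoplasmic reticulum, had 449.9 and 382.0 against 268.3 and 267.8 and rose by 0.60. DER1, another derlin, had 536.3 on norflurazon replicate 1 and 152.6 on replicate 2 against 144.5 and 147.6 and did not pass (adjusted p = 0.232). Neither rise passed without one of the controls, and DER2.1 did not pass without norflurazon replicate 1.

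Genes of mitochondrial respiration and protein import rose in part. Of 18 named ones 5 rose and 0 fell, with a median of 0.36, where 9.24% of all nuclear loci rose. Both cytochrome c genes were among them: CYTC-2 had signals of 828.8 and 719.1 against 149.6 and 153.5 (log2 change 2.23 ± 0.17, adjusted p = 0.000176), and CYTC-1 had 1550.4 and 1399.5 against 682.0 and 709.2 (log2 change 1.07 ± 0.14, adjusted p = 0.00194). For both genes the treated arrays stood well clear of the controls. MPPBETA, the processing peptidase that cuts targeting sequences from imported proteins, rose by 0.62, LTA3, the acetyltransferase of mitochondrial pyruvate dehydrogenase, by 0.64, and SDH1-1, the flavoprotein of succinate dehydrogenase, by 0.52. SDH2-1, its iron-sulfur subunit, read 742.9 and 1405.7 against 517.6 and 535.4 and did not pass (log2 change 0.94 ± 0.29, adjusted p = 0.0586). The calls of both cytochrome c genes held without each array, and those of the other 3 did not hold without either control. SDH1-1 passed in none of the 4 fits that leave out 1 array (adjusted p = 0.0529 and 0.0674 without norflurazon replicate 1 or 2).

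In the list written by locus of genes known to respond to impaired mitochondria, 9 of 28 loci could be tested and 4 rose: AT5G51440, AT2G04050, AT2G41730 and AT2G21640, given above. None fell, and the median of the list was 0.62, where 9.24% of all nuclear loci rose. This list too was chosen with earlier results of these data known, so its count is a description. Of the 4 rises that of AT5G51440 was uneven, at 1660.9 on norflurazon replicate 1 and 256.4 on replicate 2. On the norflurazon arrays of the mutant it read 702.5 and 286.4. Replicate 1 was thus the higher in both genotypes, as for ATHSP22.0, AT1G53540 and HSA32 above. Whether its rise belongs with that pattern was not tested. The same list held AT2G32020 at 45.7 and 90.2 against 33.8 and 39.8, which did not pass (adjusted p = 0.184), and AT5G09570, whose arrays overlapped between the groups.

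Of 13 named genes for lipid breakdown, the glyoxylate cycle and acetyl-CoA, 3 rose and 0 fell, and the median was 0.22. The share that rose over all nuclear loci was 9.24%. ICL, given above, stood apart from the rest. ACLA-3, a subunit of ATP citrate lyase, which makes cytosolic acetyl-CoA, had signals of 417.3 and 375.3 against 234.6 and 219.0 and rose by 0.76 ± 0.16 (adjusted p = 0.0143). SDRB, a peroxisomal dehydrogenase, had 304.0 and 388.4 against 208.9 and 196.8 and rose by 0.72. ACS, acetyl-CoA synthetase, had 280.7 and 396.4 against 209.6 and 205.8 and did not pass (log2 change 0.65 ± 0.19, adjusted p = 0.052). Without either control ICL alone of the 3 passed, and SDRB did not pass without norflurazon replicate 2.

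Amino acid genes moved both ways. Of 18 named genes of branched-chain amino acid, ureide and other amino acid turnover 3 rose and 2 fell, with a median of 0.09. The share called over all nuclear loci was 18.5%. GAT1_2.1, a glutamine amidotransferase-like gene, had signals of 148.8 and 141.6 against 70.8 and 62.0 and rose by 0.97 ± 0.18 (adjusted p = 0.00861). BCAT4, an aminotransferase that starts methionine-derived glucosinolate synthesis, had 214.4 and 145.8 against 81.5 and 83.3 and also rose by 0.97 ± 0.28 (adjusted p = 0.0438). DELTA-OAT, ornithine aminotransferase, rose by 0.66. MGL, methionine gamma-lyase, had 122.0 and 134.3 against 300.5 and 261.8 and fell by 1.04, and UGLYAH, which frees ammonia from ureides, fell by 0.65. None of the 5 calls held without one of the controls, and BCAT4 and UGLYAH also missed the threshold without norflurazon replicate 1.

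In sulfur metabolism 1 of 9 named genes rose and 2 fell, beside 18.5% of all nuclear loci called in either direction. APS4, an ATP sulfurylase that activates sulfate, read 447.0 and 403.6 against 212.7 and 199.4, a log2 change of 0.99 ± 0.17 (adjusted p = 0.00615). STR18, a sulfurtransferase, read 141.4 and 174.2 against 408.3 and 453.8 and fell by 1.37 ± 0.21 (adjusted p = 0.00453). ARD4, a dioxygenase of methionine salvage, read 379.4 and 381.1 against 1048.2 and 695.4 and fell by 1.14. All 3 calls held without either norflurazon array; STR18 alone held without control replicate 1 and ARD4 alone without control replicate 2. THIC, an iron-sulfur enzyme of thiamine synthesis in the plastid, fell from 893.2 and 1010.1 to 137.8 and 131.3 (log2 change -2.68 ± 0.17, adjusted p = 6.82e-05), and was taken from the 30 largest falls after its values were seen.

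Sugar and starch genes moved both ways. Of 17 named genes, listed after the values had been seen, 2 rose and 5 fell, with a median of -0.32. Over all nuclear loci 9.24% rose and 9.31% fell. ATSPS4F (AT4G10120), a sucrose phosphate synthase, had signals of 21.2 and 11.2 against 264.2 and 231.5 (log2 change -3.05 ± 0.19, adjusted p = 7.39e-05). SAG29 (AT5G13170), which is the sucrose exporter SWEET15, had 14.7 and 16.1 against 166.2 and 110.4 (log2 change -2.27 ± 0.20, adjusted p = 0.000377). Both were dim on norflurazon, and both falls held without each array. Of 5 sugar carriers of the vacuole 2 passed: SWEET17 (AT4G15920) had 385.3 and 598.1 against 240.7 and 208.4 and rose by 1.05 ± 0.22 (adjusted p = 0.0153), and SWEET2 had 278.1 and 244.7 against 173.1 and 138.9 and rose by 0.69. SWEET16, TMT1 and TMT2 did not pass, with log2 changes of 0.31, 0.16 and -0.36 (adjusted p = 0.386, 0.646 and 0.361). The starch enzymes SBE2.2, which branches the glucan, DPE1, which rearranges short chains, and PWD, which phosphorylates glucan for breakdown, fell by 1.02, 0.90 and 0.87. The calls of the starch enzymes and of SWEET17 and SWEET2 did not hold without either control, and SWEET2 did not pass without norflurazon replicate 1.

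Among 19 named transporters of ions and metabolites 1 rose and 2 fell, beside 18.5% of all nuclear loci called. VHA-A3, a subunit of the proton pump of the vacuole, read 801.3 and 961.7 against 506.1 and 515.5 and rose by 0.76 ± 0.15 (adjusted p = 0.0128). GTR1, a glucosinolate importer of the nitrate and peptide transporter family, read 78.1 and 85.0 against 216.9 and 198.1 and fell by 1.2 ± 0.16 (adjusted p = 0.00231). MTP11, a manganese carrier, read 126.0 and 179.0 against 320.1 and 248.1 and fell by 0.84. The family of nitrate and peptide transporters had 7 tested members, of which 3 fell and 0 rose: GTR1, AT1G68570 by 1.57 and AT1G59740 by 1.13. GTR1 and AT1G68570 held without each array, AT1G59740 did not hold without control replicate 2, and neither VHA-A3 nor MTP11 held without one of the controls. MTP11 did not hold without norflurazon replicate 1 either.

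Of 16 named expansin and xyloglucan enzyme genes 3 fell and 0 rose, with a median of -0.10, and of 19 for endoglucanases, cellulose synthase-like and pectin enzymes 4 fell and 0 rose, with a median of -0.16; of all nuclear loci 9.31% fell and 9.24% rose. GH9B8, an endoglucanase, had signals of 33.8 and 31.3 against 98.6 and 79.5 (log2 change -1.11 ± 0.19, adjusted p = 0.00695). GH9B13, another, had 39.3 and 76.3 against 130.6 and 141.5 and fell by 1.09, or by 0.72 without norflurazon replicate 1. CSLC5 and ATCSLC08, which belong to the glucan synthases of xyloglucan, fell by 0.61 and 0.59.

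Of the wall-loosening genes, XTH18, a xyloglucan endotransglucosylase, had 103.7 and 114.5 against 192.2 and 197.7 and fell by 0.76 ± 0.19 (adjusted p = 0.0292). EXPB3, a beta-expansin, had 80.4 and 100.1 against 159.0 and 141.5 and fell by 0.65. EXLB1, an expansin-like gene, had 22.3 and 19.6 against 64.6 and 34.4 and fell by 0.79; its change was -0.45 without control replicate 1. The other 13 members of that list did not pass. Of the 7 wall calls 0 held without control replicate 1 and 2 without control replicate 2 (GH9B8 and EXLB1), 2 held without norflurazon replicate 1 (GH9B8 and GH9B13) and all but EXLB1 without norflurazon replicate 2. Of 14 trichome birefringence-like genes, which acetylate wall polymers, limma called 0; 2 had an unadjusted p under 0.05, and TBL38 had the smallest p (log2 change -0.89 ± 0.29, adjusted p = 0.0684). Of 7 tubulin genes TUB1 fell, at 76.0 and 77.4 against 137.7 and 151.4 (log2 change -0.79 ± 0.17, adjusted p = 0.0186), a call that did not hold without either control.

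Of 10 named auxin genes 1 rose and 3 fell, with a median of -0.36, where 18.5% of all nuclear loci passed in either direction. GH3.17, which couples auxin to glutamate, had signals of 221.3 and 292.9 against 128.7 and 130.2 and rose by 0.90 ± 0.18 (adjusted p = 0.0127). WES1, a GH3 enzyme that couples auxin to aspartate, had 169.0 and 139.4 against 240.4 and 278.8 and fell by 0.70 ± 0.17 (adjusted p = 0.0282). The 2 conjugating enzymes thus lay on opposite sides of the control. GH3.3, of the same family, had 164.1 and 68.2 against 25.7 and 32.1 and did not pass (log2 change 1.46 ± 0.64, adjusted p = 0.15). AILP1, an auxin-responsive gene, fell by 1.27, and HAT2, a homeodomain factor induced by auxin, by 0.64. No auxin call held without either control; HAT2 did not pass without norflurazon replicate 1, and AILP1 and WES1 not without norflurazon replicate 2.

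The other hormone lists and the list of signal peptides held 1 call each among 9 genes, beside 18.5% of all nuclear loci called. Of 9 genes of gibberellin and brassinosteroid 1 fell and 0 rose. BAT1, an acyltransferase that inactivates brassinosteroids, had 40.9 and 43.4 against 88.0 and 95.7 and fell by 0.89 ± 0.17 (adjusted p = 0.00988). Its call did not hold without either control. The gibberellin receptors GID1A and GID1B did not pass, at log2 changes of 0.72 and 0.58 (adjusted p = 0.0916 and 0.0702). Of 9 genes of jasmonate and ethylene, ORA47, a factor that turns on jasmonate synthesis, fell from 98 and 87.8 to 25.4 and 23.4. This change of -1.43 ± 0.16 (adjusted p = 0.00104) held without each array, and 0 of the 9 rose. Of 9 signal peptides, STOMAGEN, which raises the density of stomata, had 92.9 and 56.6 against 134.1 and 138.7 and fell by 0.78, or by 0.49 without norflurazon replicate 2, when it did not pass; it did not pass without either control.

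Cold and drought genes moved both ways. Of 11 named ones 3 rose and 2 fell, with a median of 0.04, beside 18.5% of all nuclear loci called. DI21, a drought-induced gene, read 503.3 and 607.3 against 237.2 and 221.0 and rose by 1.22 ± 0.23 (adjusted p = 0.00971). COR15B, a cold-regulated protein of the chloroplast stroma, read 31.1 and 19.5 against 92.0 and 84.7 and fell by 1.35 ± 0.19 (adjusted p = 0.00272), which held without each array. RD2, another drought-responsive gene, read 690.5 and 588.7 against 383.6 and 328.2 and rose by 0.82. M17, a gene of late seed maturation, was dim in the control, at 11.2 and 21.4 against 45.1 and 105.4, and rose by 1.43, or by 0.94 without norflurazon replicate 2. COR27, a cold-regulated gene of the clock, fell by 0.86, or by 0.53 without norflurazon replicate 1, when it did not pass. Of the 5 calls COR15B alone held without one of the controls.

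**Figure D4:**
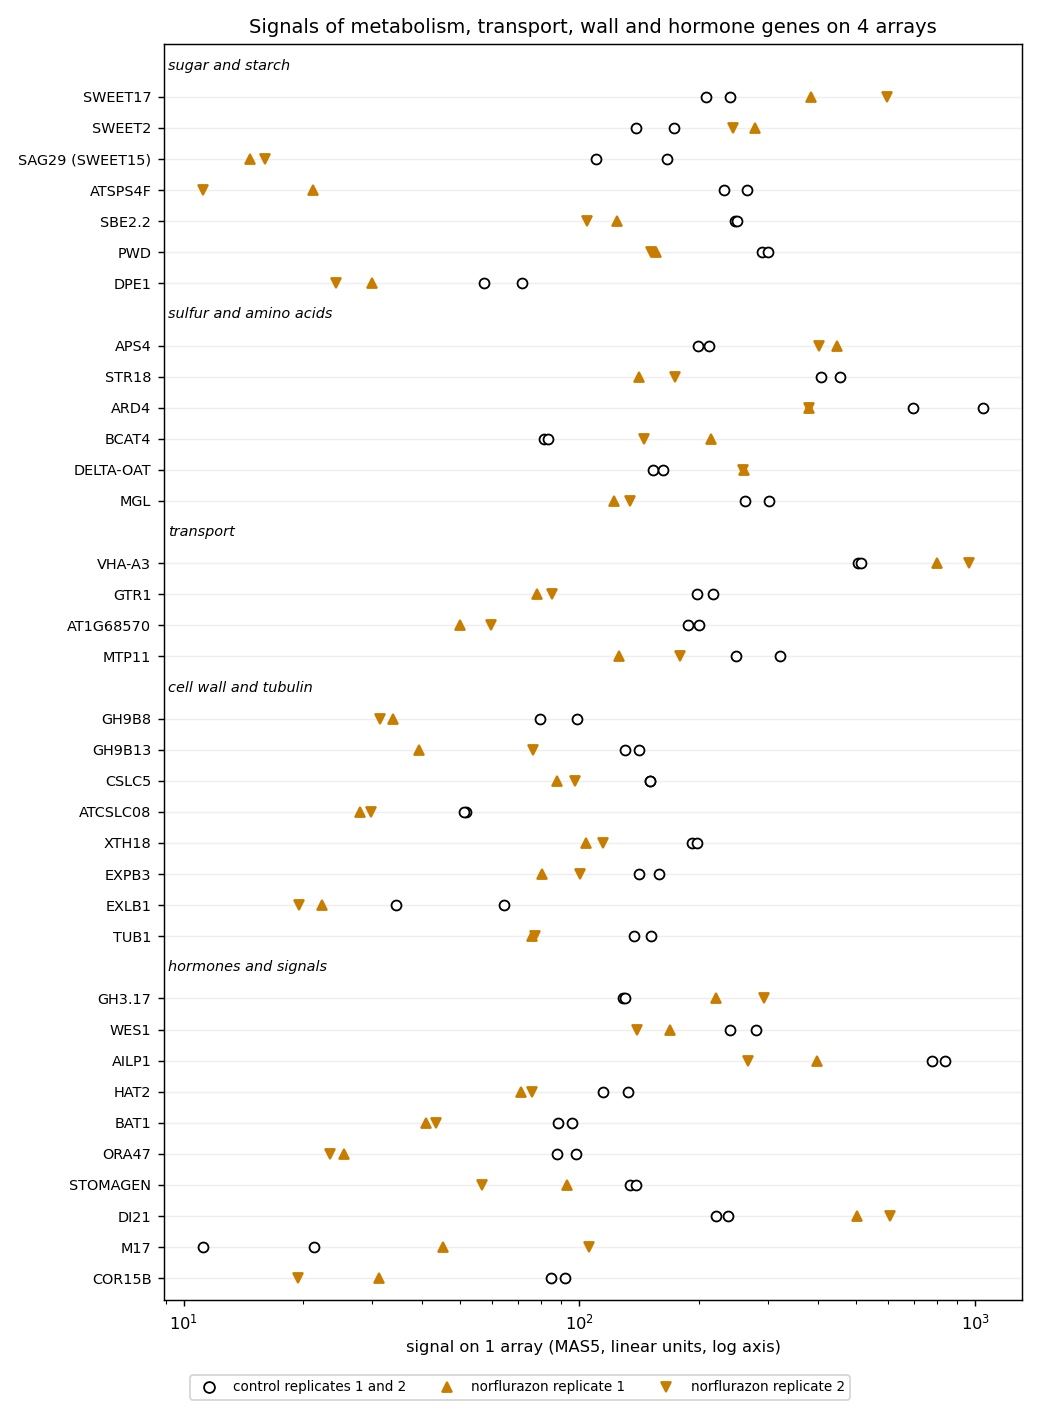
Signals of sugar, sulfur, transport, wall and hormone genes on the 4 wild type arrays, on a log axis, with open circles for the controls and triangles for the norflurazon arrays. SAG29 and ATSPS4F lie far to the left of their controls and SWEET17 to the right. The genes drawn are those that passed the threshold. The wall and tubulin genes drawn are only those that fell, so their place to the left was fixed by that choice. Most genes of the wall lists are not drawn.

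Defence genes spanned log2 changes from -3.01 to 2.2. Of 13 named defensin, thionin, chitinase and lectin genes 2 rose and 3 fell, beside 18.5% of all nuclear loci called. PDF1.4, a plant defensin, had signals of 449.6 and 317.3 against 69.8 and 69.4 (log2 change 2.2 ± 0.20, adjusted p = 0.000451). THI2.2, a thionin, had 572.4 and 630.4 against 250.0 and 178.4 and rose by 1.44. ECS1 fell from 1628.3 and 1825.3 to 224.5 and 178.2, a log2 change of -3.01 ± 0.19 (adjusted p = 7.14e-05). ChiC, a chitinase, had 49.5 and 55.2 against 157.7 and 176.0 and fell by 1.42, and EULS3, a lectin, fell by 1.13. PDF1.4, ECS1 and ChiC held without each array, and THI2.2 and EULS3 did not hold without either control.

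Of 9 named beta-glucosidases, which free active compounds from their glucosides, 2 rose and 3 fell, beside 18.5% of all nuclear loci called. BGLU25 read 289.7 and 293.8 against 102.3 and 99.8 (log2 change 1.4 ± 0.17, adjusted p = 0.00129), and BGLU46, which acts on lignin precursors, read 192.8 and 235.9 against 89.5 and 71.1 (log2 change 1.26). BGLU28 read 15.6 and 28.6 against 83.1 and 121.5 and fell by 1.64 ± 0.23 (adjusted p = 0.00282). BGLU40 fell by 1.33, or by 0.88 without norflurazon replicate 1, and BGLU15 by 0.57. BGLU25 and BGLU28 held without each array; BGLU46 was lost without control replicate 2, BGLU40 without either control, and BGLU15 without any 1 of the 4 arrays.

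Among 28 named UDP-glycosyltransferases, which attach sugars to small molecules, 2 rose and 2 fell, with a median of 0.05. For comparison, 18.5% of all nuclear loci were called in either direction. UGT85A2 had 201.1 and 165.4 against 78.2 and 85.5 and rose by 1.02 ± 0.17 (adjusted p = 0.00648), and UGT71C2 rose by 0.90. UGT85A5, of the same subfamily as UGT85A2, had 17.1 and 23.0 against 76.0 and 63.2 and fell by 1.25 ± 0.25 (adjusted p = 0.0117), and UGT88A1 fell by 0.85. Of 7 named cytochromes P450, CYP71B28 fell, at 70.0 and 74.2 against 149.8 and 147.7 (log2 change -0.90 ± 0.15, adjusted p = 0.00625). None of these 5 calls held without one of the controls.

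Some genes for making and processing RNA in the nucleus rose. Of 11 named subunits of nuclear RNA polymerases 4 rose, of 8 genes of ribosomal RNA processing 5 rose, and of 17 splicing genes 6 rose. Among all nuclear loci 9.24% rose. In none of the 3 lists did a gene fall, and the medians were 0.58, 0.71 and 0.61 against 0.05 over all nuclear loci. NRPA2 (AT1G29940) and NRPA1 (AT3G57660), the core subunits of RNA polymerase I, which transcribes ribosomal RNA, had signals of 260.4 and 410.0 against 116.8 and 140.6 and of 105.4 and 146.4 against 53.5 and 49.4. They rose by 1.25 ± 0.23 (adjusted p = 0.0089) and 1.06 ± 0.23 (adjusted p = 0.0158). NRPC2, of RNA polymerase III, had 108.1 and 132.3 against 53.2 and 47.4 and rose by 1.03, and NRPB12, a small subunit, rose by 0.79.

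In ribosomal RNA processing, PRH75 (AT5G62190), a nucleolar RNA helicase, had 703.2 and 849.0 against 268.6 and 325.6 (log2 change 1.34 ± 0.20, adjusted p = 0.00385). DIM1A, which methylates the small-subunit RNA, had 313.8 and 271.8 against 111.1 and 114.6 and rose by 1.26 ± 0.20 (adjusted p = 0.00486). IMP4 and YAO, of the complex that trims the small-subunit precursor, rose by 1.01 and 0.75, and RBL rose by 0.67. For tRNA, TRZ3, which trims the 3′ end, rose by 0.89, 1 of 4 named genes. The treated arrays stood above both controls for each of these genes, where the groups did not overlap in 61.7% of all nuclear loci.

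Among the splicing genes, LIS, a protein of the tri-snRNP, had 160.2 and 251.5 against 95.4 and 81.5 and rose by 1.06 ± 0.23 (adjusted p = 0.0165), and PRP39, a protein of the U1 particle, had 265.4 and 365.0 against 155.9 and 165.9 and rose by 0.89. MAC3A, LSM6B, ATO and STIPL1 rose by 0.75, 0.68, 0.68 and 0.64. A further 5 splicing genes had an unadjusted p under 0.05 but did not pass, among them MAC3B at 689.5 and 1084.5 against 591.7 and 535.3 (adjusted p = 0.0933). Of the 15 calls in the 3 lists, 0 held without control replicate 1 and 1 without control replicate 2 (PRH75), while 13 held without norflurazon replicate 1 and 13 without norflurazon replicate 2. TRZ3 did not hold without either control.

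**Figure D5:**
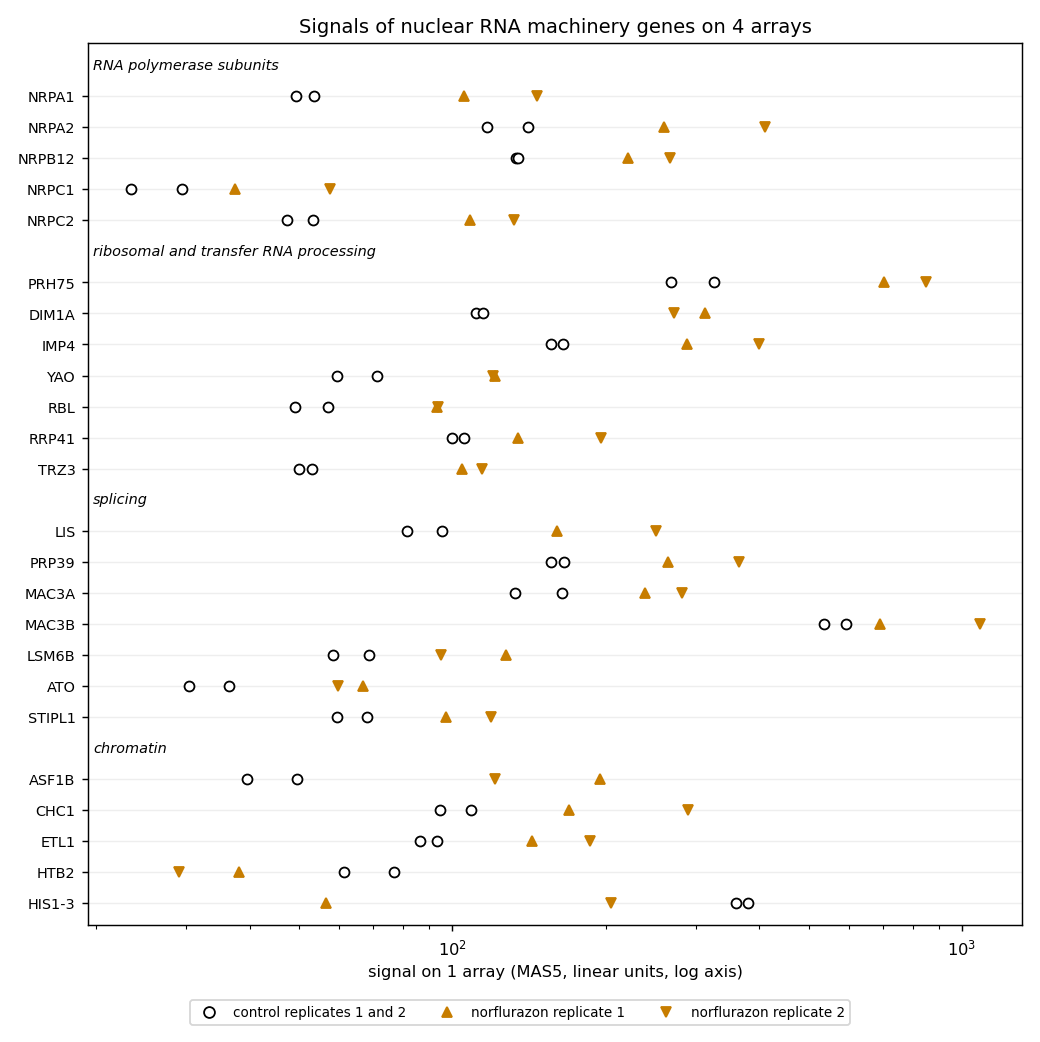
Signals of nuclear RNA polymerase, RNA processing, splicing and chromatin genes on the 4 wild type arrays, on a log axis, with open circles for the controls and triangles for the norflurazon arrays. The treated arrays lie to the right of both controls for every gene shown except HTB2 and HIS1-3, which lie to the left. Most genes drawn are those that passed the threshold, so their side was largely set by that choice.

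Chromatin genes moved both ways. Of 17 named ones 3 rose and 2 fell, with a median of 0.20, beside 18.5% of all nuclear loci called in either direction. ASF1B, a histone chaperone, had signals of 195.1 and 121.5 against 39.6 and 49.5 and rose by 1.50 ± 0.24 (adjusted p = 0.00529). HIS1-3, a drought-inducible linker histone, had 56.6 and 204.9 against 380.9 and 360.3 and fell by 1.61 ± 0.43 (adjusted p = 0.0369), or by 0.81 without norflurazon replicate 1. CHC1, of a chromatin remodelling complex, rose by 1.02, or by 0.66 without norflurazon replicate 2, when it did not pass. ETL1 rose by 0.76, and HTB2, a histone H2B, fell by 0.78 but did not pass without norflurazon replicate 2. Without control replicate 1 none of the 5 calls held, and without control replicate 2 that of ASF1B alone.

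Of 27 named genes of ubiquitin conjugation and removal 2 rose and 1 fell, beside 18.5% of all nuclear loci called in either direction. PUB19, a U-box ubiquitin ligase of the drought response, read 31.1 and 46.2 against 215.0 and 158.2 and fell by 1.89 ± 0.22 (adjusted p = 0.00108), which held without each array. UBP23, a deubiquitinating enzyme, rose by 0.74, and UBC27, a conjugating enzyme, by 0.70; neither held without one of the controls. Of 10 autophagy genes limma called 0, and 1, ATG8B, had an unadjusted p under 0.05, at 175.6 and 235.2 against 118.7 and 131.9 (log2 change 0.64 ± 0.23, adjusted p = 0.0915). Of 9 genes of light signalling and the clock, HYH, a close relative of the light-response factor HY5, rose from 107.3 and 84.9 to 202.0 and 161.0 (log2 change 0.82 ± 0.19, adjusted p = 0.0208). Of 18 WRKY, bHLH and bZIP factors 0 rose and 2 fell: WRKY22 by 1.07 ± 0.19 (adjusted p = 0.0082) and UPB1, a repressor of peroxidase genes in the root, by 0.95. That list leaves out HYH and BZIP28, which are bZIP factors counted in other lists and rose. HYH, WRKY22 and UPB1 did not hold without either control.

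Markers of cell types were thinly covered. Of 25 leaf mesophyll markers the 3 LHCB4 genes could be tested and all fell. Their summed signal was 1148.1 to 1181.3 on norflurazon and 5997.8 to 6676.7 in the control. All 3 are antenna genes of photosynthesis, so lower expression of them cannot be told apart here from fewer mesophyll cells. Of 9 root markers PYK10 and EXPA7 could be tested and neither passed; PYK10 read 2821.2 and 3487.9 against 3665 and 3345.8. Of 6 epidermis and guard cell markers 1 was tested, AT1G22690, which fell by 0.76, a call lost without either control and without norflurazon replicate 2. None of the 8 vascular or 10 dry seed markers was named, and no tested marker was at 0. The part of a change in tissue makeup in the results above was not tested.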

How the data were processed

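RNA from whole seedlings was hybridised to ATH1 arrays, 1 per sample. The deposited intensity values are linear signals. Per the submitters' processing notes they come from MAS5, with no version named there. Trimmed mean signals of 99.6 to 99.9 on all 6 arrays show scaling to a common level. Signals were transformed to log2(signal + 16). The 64 control probe sets were left out, and probe sets with a mean at or above the 40th percentile, a signal of 28.2, were kept (13648 of 22810). No detection calls were used. In limma 3.58.1 (R 4.3.3; lmFit, then eBayes with trend) 1 mean per group was fitted over the 6 arrays, with 3 residual and 4.88 prior degrees of freedom. Tested on simulated data for this comparison, the fit recovered 34 of 100 changes of 2-fold and 92 of 100 of 4-fold, with 4 false calls among 13448 unchanged probe sets. The simulated spread was equal in all groups and was assigned to probe sets at random. In the real pairs the standard deviation of the log2 difference was 0.5 on norflurazon and 0.215 in the control. The recovery and false calls may therefore not carry over to the real arrays.

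Platform annotation, updated through RefSeq TAIR10.1, named 1 gene for 13513 probe sets, several for 503 and none for 8730; 13508 were matched to a locus. Lists use the brightest probe set per locus. Of 778 loci in 27 lists written by locus, 114 were named and 96 tested. A further 21 families were found by words of the annotation, and 36 role lists by symbol after values had been seen. Members and lists were chosen with earlier results of these data known. The rule for named genes took the 10 largest rises and falls of single nuclear loci whose arrays did not overlap, and per list of at least 3 tested loci the 2 largest called rises and falls, or the member of smallest p if none passed; further genes are named as members of a list. No group or sample was left out. There were 13 alternative settings.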

Additional observations from a re-analysis of the deposited data

How the results depend on the processing

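The number of called probe sets was 2630, and under the other pseudocounts, filters, scalings, weights and choice of arrays it ranged from 2191 to 2776. It was 3216 with the replicate number as a block. The labels do not say that a number marks a shared batch, and for arrays that share a number the correlation of deviations was 0.0743 between the wild type groups, 0.0793 between control and mutant, and 0.4798 between wild type and mutant on norflurazon, so not every pair was over 0.1 and the fit has no block; all 109 called genes named by the rule passed with it too. Leaving out 1 array at a time gave 621 to 3196 called probe sets, 123 to 1557 rises, 498 to 1639 falls, and 47 to 177 called loci of the lists (154 with all arrays). The lone array of a group is then assumed to vary like the others. Without a control array the shared spread comes from the norflurazon pairs alone, so a lost call need not mean a changed log2 change. The lowest values came without a control array: without control replicate 1 or 2, 67 and 62 of the 109 named genes no longer passed, against 15 and 7 without norflurazon replicate 1 or 2, 24 with no filter and 10 with the 4 wild type arrays alone. None of the 109 called genes named by the rule changed direction under any of the 13 alternatives in which it was tested. Some named genes that did not pass did, such as TMT1, at 0.16 with all arrays and -0.15 without norflurazon replicate 2. The share of rises among the calls was 46.8%, 38.9% with no filter and 51.6% after median centring. Of the calls, 137 falls had a norflurazon mean and 119 rises a control mean under the filter level, where signal limits the size of the change.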

Other observations

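Lists written by locus and not described above added few calls. Of 7 tested photooxidative and antioxidant loci 2 rose and 2 fell, among the falls AT3G11630 from 1987.2 and 1842.6 to 1248.2 and 1140.9. Of 6 tested flavonoid and phenylpropanoid loci limma called 0 and 3 had an unadjusted p under 0.05; UGT78D2 had the smallest p, at 251.9 and 315.0 against 191.3 and 201.8 (log2 change 0.49, adjusted p = 0.0834). Of 9 tested loci of glycolysis, the TCA cycle and respiration 3 rose and 0 fell; GAPC2, a cytosolic glyceraldehyde phosphate dehydrogenase, had 2644.3 and 2840.7 against 2818.1 and 2529.4 and did not pass. Of 8 tested loci of carbon starvation and amino acid breakdown SAG29 fell and 0 rose, of 10 of starch and sucrose 2 rose and 3 fell, of 3 of glucosinolate synthesis BCAT4 rose, and of 3 of gibberellin and brassinosteroid limma called 0, with 2 at an unadjusted p under 0.05. Of 5 bHLH factors limma called 0, and 0 had an unadjusted p under 0.05; bHLH104 had the smallest p, at 257.3 and 206.8 against 182.7 and 181.2.

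Of 6060 tested probe sets that are unnamed here 522 rose and 646 fell. The deepest fall among them had signals of 12.1 and 11.8 on norflurazon against 3509.8 and 3214.3 in the control, a log2 change of -6.92 (adjusted p = 1.44e-06), and the next had 1.4 and 0.5 against 1000.4 and 1056.1 (log2 change -5.95). The largest rise went from 1.5 and 1.9 to 166.2 and 111 (log2 change 3.1), and the next from 163.7 and 154.1 to 1243.4 and 1173 (log2 change 2.81, adjusted p = 4.79e-05). All 4 passed without each of the wild type arrays in turn.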
